A study of Fragaria vesca with 12 samples.

Results

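The flavonoid and anthocyanin synthesis genes of the strawberry Fragaria vesca cv. Mara des Bois were described here in stored ripe fruit. The members were all genes whose Rosaceae-based description in the deposited table held the word chalcone or the stems flavon, flavan or anthocyan, without UDP-glucosyltransferases, MYB factors and cytochromes P450. The rule gave 18 of the 34008 genes in the table, and the 3 exclusions removed 0 rows. By their own descriptions the 18 comprised 5 chalcone synthase family genes, 6 chalcone isomerase family genes, 1 flavanone 3-hydroxylase, 2 flavonol synthases, 3 dihydroflavonol 4-reductases and 1 leucoanthocyanidin dioxygenase.

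Anthocyanins are the red pigments of the ripe receptacle, and they are made from p-coumaroyl-CoA, the product of the general phenylpropanoid pathway. Chalcone synthase joins it to malonyl-CoA units, chalcone isomerase closes the ring to a flavanone, and flavanone 3-hydroxylase turns the flavanone into a dihydroflavonol. At that point flavonol synthase diverts the substrate to flavonols, while dihydroflavonol 4-reductase and leucoanthocyanidin dioxygenase carry it on to coloured anthocyanidins, which are then glycosylated.

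The study set 3 kinds of stored fruit beside fruit at harvest, in order to follow how cold storage and a CO2 pretreatment act on ripe berries. CCS fruit were kept for 7 days at 1°C, the first 2 days in 18% CO2, 18% O2 and 64% N2 and the other 5 days in air, and were then held for 1 day at 20°C. ACS fruit had the same 7 days at 1°C without the gas mixture, and the same day at 20°C. NCS fruit were not cold stored but stood for 2 days at 20°C and 80% RH, and AH fruit were sampled 2 hours after harvest. All were ripe fruit of the same cultivar, and each condition had 3 libraries made from pools of strawberries. The labels and the study's RNA extraction methods put a pool at 50 or more fruit. Its description of the plant material gives a smaller number for the frozen batches, so what the spread between pools averages over is uncertain. The lots of a condition were stored together, so the CO2 treatment and its container cannot be told apart, and p-values measure the spread between pools of that lot. Whole fruit were ground, so more cells of a type and more RNA per cell cannot be told apart in any result that follows.

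Expression was deposited as RPKM, which sets reads against gene length and library depth, and read numbers recovered from these values put the libraries at 64.2 to 119.9 M reads. The harvest libraries were the least alike. AH replicate 1 differed from AH replicates 2 and 3 by a median of 33.9 and 51.6 times the variance that read counting gives. The value was 10.8 times between AH replicates 2 and 3 and 4.55 to 9.88 times between replicates of the stored conditions. The recovered totals exceed the paired-end read numbers that the study reports, so both mates of a pair may be counted. All these multiples would then be overstated. Results that rest on AH replicate 1 are given with and without it. Marker genes of the fruit's tissues were present. Summed RPKM of 48 receptacle cell wall genes was 2273 to 2466 in CCS, 1983 to 2065 in ACS, 1957 to 2073 in NCS and 2872 to 3320 in AH. Single genes of this list went both ways by the limma test described below. In CCS against AH, 5 were higher and 6 lower, of 16 tested. In ACS 6 were higher and 10 lower, of 18, and in NCS 3 were higher and 11 lower, of 16. Some tissue markers moved with the conditions. The 9 oleosins of the achenes summed to 516 to 1676 RPKM in CCS, 996 to 2109 in ACS, 308 to 408 in NCS and 1249 to 1742 in AH, with 0 of the 9 at 0 in every library. By the same test 9 of the 9 were lower in NCS than in AH. In ACS against AH, CCS against AH and CCS against ACS, 0 were higher and 0 lower. Single libraries set the wide ranges. CCS replicate 3 had 516 RPKM against 1676 and 1529 in the others. ACS replicate 1 had 2109 RPKM against 999 and 996. The wider list of 176 achene and seed genes summed to 7801 to 9567 RPKM in CCS, 9028 to 10926 in ACS, 8148 to 8293 in NCS and 14928 to 16164 in AH. Single genes of this list did not all follow the sum. In the limma test described below, 40 were higher and 20 lower in ACS than in AH, of 90 tested. In CCS 37 were higher and 14 lower, of 92, and in NCS 25 were higher and 42 lower, of 84. The median log2 fold change of the tested genes over AH was 0.21 in ACS, 0.12 in CCS and -0.41 in NCS. The 61 green-tissue genes summed to 67.2 to 76.3 RPKM in CCS, 55.6 to 70.3 in ACS, 46.6 to 49.2 in NCS and 103 to 132 in AH. The part of these shifts in the results on the pathway was not tested.

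Transcripts of the pathway were among the most abundant of the fruit, and each step was carried almost wholly by 1 or 2 genes. In total 6 members averaged above 100 RPKM over the 12 libraries, 6 lay between 1 and 10 RPKM, 5 were above 0 but below 1 RPKM, and 1 was listed at 0 in every library. Chalcone isomerase FvH4_7g25890 ranked 11th of the 34008 genes by mean RPKM, flavanone 3-hydroxylase FvH4_1g11810 23rd, leucoanthocyanidin dioxygenase FvH4_5g01170 36th and chalcone synthase FvH4_7g01160 44th. Dihydroflavonol 4-reductase FvH4_2g39520 ranked 185th and the chalcone isomerase FvH4_7g20870 222nd. These ranks depend on the gene lengths in the authors' RPKM, which ran from 1643 bases for FvH4_7g25890 to 7651 bases for FvH4_7g01160 among the 6. Whether the lengths include introns was not given in the sources used here.

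**Figure D1:**
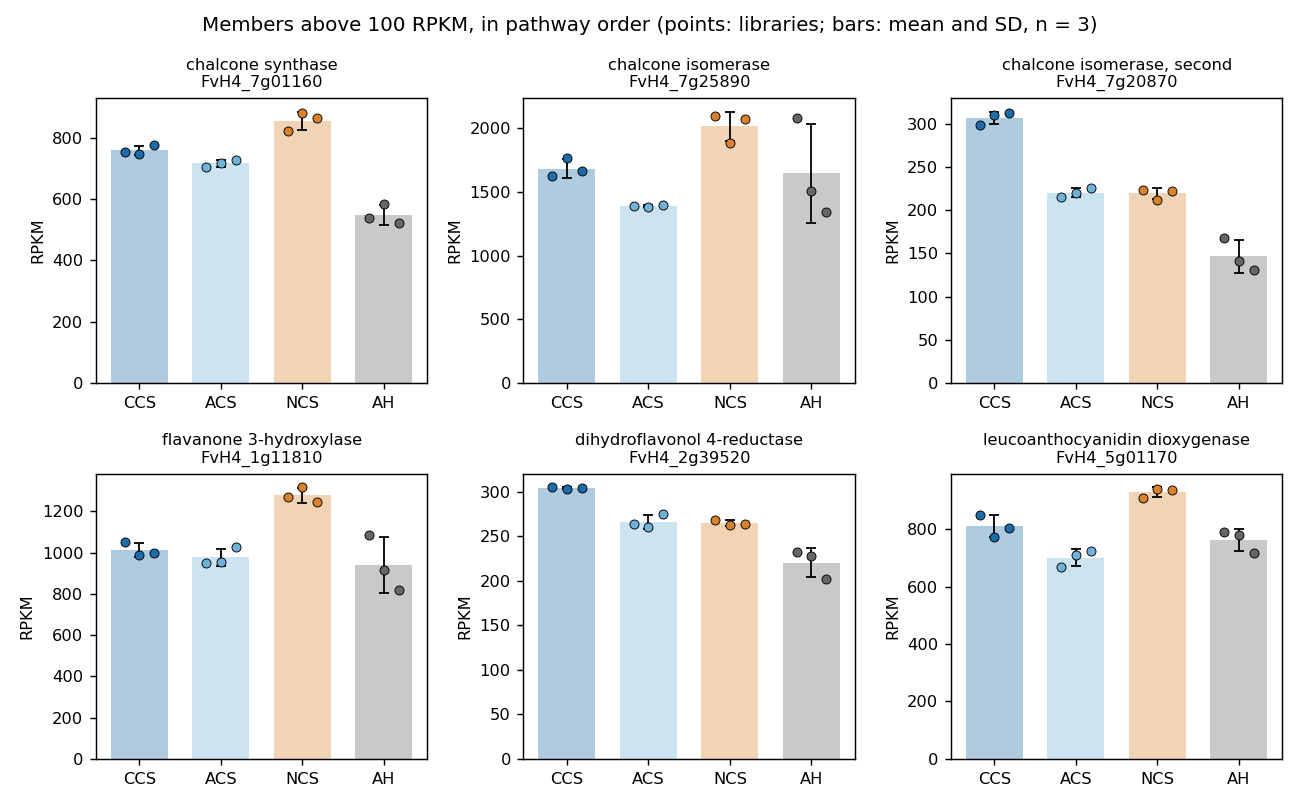
RPKM (vertical axes, linear, from 0) of the 6 members above 100 RPKM in CCS, ACS, NCS and AH fruit; points are libraries, bars and whiskers the mean and SD of 3 libraries. FvH4_7g01160, FvH4_1g11810 and FvH4_5g01170 were highest in NCS, FvH4_7g20870 and FvH4_2g39520 were highest in CCS, and FvH4_7g25890 ran from 1347 to 2084 RPKM within AH.

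Chalcone synthase catalyses the committed step. FvH4_7g01160 made up 99.4 to 99.98% of the summed RPKM of the 5 chalcone synthase genes in each library. Its level was 754, 748 and 776 RPKM in CCS, 706, 717 and 728 in ACS, 821, 879 and 865 in NCS and 539, 583 and 522 in AH. Every stored library lay above every AH library, the NCS libraries were the highest, and the CCS libraries lay between those of NCS and ACS without overlap. The log2 fold change over AH, on log2(RPKM + 0.1), was 0.47 ± 0.08 in CCS (SE, adjusted p = 0.00382), 0.39 ± 0.08 in ACS (adjusted p = 0.00739) and 0.64 ± 0.08 in NCS (adjusted p = 0.000919), in limma fits with Benjamini-Hochberg adjustment over all genes tested. As a ratio of means the level was 1.38 times that of AH in CCS, 1.31 times in ACS and 1.56 times in NCS. Relative to NCS the gene was lower in ACS (-0.25, limma adjusted p = 0.00666) and in CCS (-0.17, limma adjusted p = 0.0263). The CCS call against NCS was lost in 6 of 13 alternatives, among them the fits without CCS replicate 1 or 2 or without NCS replicate 2 or 3 (adjusted p = 0.0614 to 0.0802). CCS and ACS differed by 0.08 with a 95% interval of -0.03 to 0.19.

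The widest change among the members was in a chalcone synthase family gene at a low level. FvH4_2g28040 had 2.50, 2.23 and 2.67 RPKM in CCS, 4.09, 3.08 and 3.70 in ACS, 4.40, 4.89 and 4.79 in NCS, and 0.106, 0.0336 and 0.0412 in AH. In recovered reads these were 1062 in CCS, 1594 in ACS, 1856 in NCS and 29 in AH, each summed over 3 libraries. The stored libraries were all far above the AH libraries, and among stored fruit the levels ran from NCS down through ACS to CCS with no overlap of libraries. The means were 41.0 times the AH mean in CCS, 60.3 times in ACS and 78.1 times in NCS. On the log2(RPKM + 0.1) scale, which understates changes of low genes, the log2 fold change over AH was 4.03 in CCS, 4.56 in ACS and 4.93 in NCS. The gene met the filter on low values only through the stored libraries, so the filtered test against AH is not used for it. In the fit of all genes without that filter the limma adjusted p was 4.3e-05 in CCS, 2.7e-05 in ACS and 3.1e-05 in NCS.

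Between stored conditions FvH4_2g28040 was lower in CCS than in NCS by a log2 fold change of -0.90 ± 0.08 (limma adjusted p = 0.000214). It was also lower in CCS than in ACS, by -0.53 ± 0.12 (limma adjusted p = 0.0208), and lower in ACS than in NCS, by -0.37 ± 0.11 (limma adjusted p = 0.0286). The last of these calls was lost in 6 of 13 alternatives, among them the fits without ACS replicate 3 and without NCS replicate 2 or 3 (adjusted p = 0.0512 to 0.0837). The call of CCS against ACS was lost without CCS replicate 1 or 2 or ACS replicate 1 or 3 (adjusted p = 0.0516 to 0.0667). The Rosaceae-based annotation names the gene only as a chalcone and stilbene synthase family protein, a family whose members in plants include both flavonoid and stilbene enzymes.

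The next gene by identifier, FvH4_2g28050, carries the same family name and was singled out after its values were seen. It had 16, 4 and 13 recovered reads in CCS, 22, 24 and 9 in ACS, 18, 26 and 13 in NCS and 4, 0 and 0 in AH. At these depths the stored conditions overlapped, while every stored library had at least as many reads as any AH library. Without a filter on low values, its log2 fold change over AH was 0.98 in CCS (limma adjusted p = 0.0489), 1.45 in ACS (0.00652) and 1.61 in NCS (0.00394). Reads that both copies could share cannot be assigned from the deposited table. The other 2 chalcone synthase genes, FvH4_2g02110 and FvH4_7g09471, stayed at or below 0.258 RPKM in every library.

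**Figure D2:**
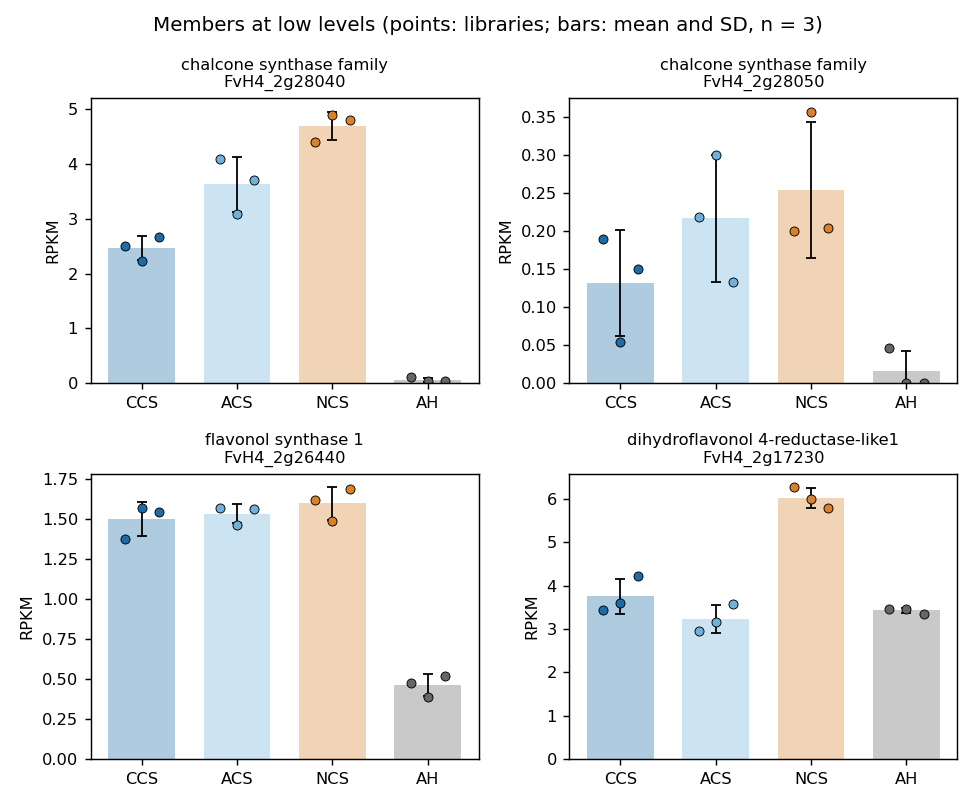
RPKM (vertical axes, linear, from 0) of 4 members at low levels in CCS, ACS, NCS and AH fruit; points are libraries, bars and whiskers the mean and SD of 3 libraries. FvH4_2g28040 and FvH4_2g26440 were near their lowest in all 3 AH libraries, and FvH4_2g17230 was highest in the 3 NCS libraries.

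Of the chalcone isomerase family, which closes the flavanone ring, 2 genes were abundant and they followed different orders. FvH4_7g25890 took 83.8 to 92.1% of the family's RPKM. It had 1624, 1764 and 1666 RPKM in CCS, 1393, 1384 and 1402 in ACS, 2093, 1886 and 2073 in NCS and 2084, 1508 and 1347 in AH. AH replicate 1 was as high as the NCS libraries, while the other AH libraries lay near those of ACS and CCS, so each stored condition overlapped AH. None of the comparisons with AH passed the test: the log2 fold change was 0.06 in CCS (95% interval -0.34 to 0.45), -0.22 in ACS (-0.61 to 0.17) and 0.32 in NCS (-0.08 to 0.71). Without AH replicate 1 the value was 0.50 in NCS (limma adjusted p = 0.00565), 0.24 in CCS (0.0564) and -0.03 in ACS (0.732). Among stored fruit the libraries did not overlap: the gene was lower in ACS than in NCS (-0.53 ± 0.06, SE, limma adjusted p = 0.000588) with CCS also below NCS (-0.26 ± 0.06, 0.0143) but above ACS (0.27 ± 0.05, 0.0121). In a fit of all 12 libraries together, which shares the wide AH spread, the CCS calls were lost (adjusted p = 0.134 against NCS and 0.167 against ACS), and they also ended without NCS replicate 1 (0.0501) and without ACS replicate 2 (0.051).

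The other abundant chalcone isomerase, FvH4_7g20870, was highest in the CO2-treated fruit and was singled out after its values were seen. It had 299, 310 and 312 RPKM in CCS, 216, 220 and 226 in ACS, 224, 212 and 222 in NCS and 168, 141 and 131 in AH. All CCS libraries were above all others, ACS and NCS overlapped, and AH was the lowest. It rose over AH by 1.07 ± 0.11 in CCS (SE, limma adjusted p = 0.00037), or 2.09 times the AH mean, by 0.59 ± 0.11 in ACS (0.0046) and by 0.59 ± 0.11 in NCS (0.00521). CCS exceeded ACS by 0.48 ± 0.05 (limma adjusted p = 0.00152) and NCS by 0.48 ± 0.05 (0.000354), and both calls stood in each of 13 alternatives. ACS and NCS differed by 0.01 with a 95% interval of -0.11 to 0.12.

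The remaining 4 chalcone isomerase family genes were at most 6.56 RPKM in any library, and the values given for them were picked after they were seen. The descriptions of FvH4_2g30870 and FvH4_1g11840 differed between the 2 annotations in the table, the other one naming an RNA polymerase subunit and a protein kinase, so their place in the pathway is uncertain. FvH4_2g30870 averaged 4.81 ± 0.10 RPKM in CCS, 6.07 ± 0.11 in ACS, 5.26 ± 0.11 in NCS and 4.22 ± 0.25 in AH (SD, n = 3 each), and was thus highest in ACS, with CCS below ACS by -0.33 (limma adjusted p = 0.00471). FvH4_1g11840 averaged 0.92 ± 0.07 RPKM in CCS, 1.21 ± 0.08 in ACS, 1.20 ± 0.10 in NCS and 1.18 ± 0.07 in AH, and CCS was below ACS by -0.36 (limma adjusted p = 0.0166, or 0.0566 without CCS replicate 3). FvH4_2g23480 was lower in ACS than in AH (-0.40, limma adjusted p = 0.0122, or 0.0605 without ACS replicate 2) and FvH4_3g17350, below the filter, had 0.227 to 0.504 RPKM. In the fit without that filter FvH4_3g17350 was lower in NCS than in AH (-0.60, limma adjusted p = 0.015). Its values over AH were -0.46 in CCS (0.0653) and -0.43 in ACS (0.118).

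Flavanone 3-hydroxylase, the branch point before flavonols and anthocyanidins, was represented by a single gene, FvH4_1g11810. Its level was 1052, 989 and 996 RPKM in CCS, 952, 957 and 1026 in ACS, 1272, 1317 and 1245 in NCS and 1084, 917 and 819 in AH. Every NCS library lay above the other 9, and CCS, ACS and AH overlapped. The overlap with AH came from AH replicate 1, as AH replicates 2 and 3 lay below every stored library. NCS exceeded AH by 0.45 ± 0.11 (SE, limma adjusted p = 0.021), a call lost without any one NCS library or AH replicate 2 (adjusted p = 0.0598 to 0.0778). The gene was lower in CCS than in NCS (-0.34 ± 0.05, limma adjusted p = 0.0021) and lower in ACS than in NCS (-0.39 ± 0.05, 0.00175), and both calls stood in each of 13 alternatives. Against AH it differed by 0.12 in CCS (95% interval -0.16 to 0.40) and by 0.07 in ACS (-0.22 to 0.35). Without AH replicate 1 the value over AH was 0.22 in CCS (limma adjusted p = 0.0625), 0.17 in ACS (0.126) and 0.56 in NCS (0.00228).

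Flavonol synthase, which diverts dihydroflavonols from pigment to flavonols, was low throughout but higher in all stored fruit. FvH4_2g26440 had 1.38, 1.57 and 1.55 RPKM in CCS, 1.57, 1.47 and 1.56 in ACS, 1.62, 1.49 and 1.69 in NCS and 0.478, 0.386 and 0.519 in AH. The stored conditions overlapped one another and none overlapped AH. The means were 3.25 times that of AH in CCS, 3.33 times in ACS and 3.47 times in NCS, from 801 recovered reads in AH and 2225 to 2346 in each stored condition. On the log2(RPKM + 0.1) scale the log2 fold change over AH was 1.52 in CCS, 1.55 in ACS and 1.60 in NCS. This gene too met the filter only through the stored libraries, and the limma adjusted p without the filter was 0.000296 in CCS, 0.000163 in ACS and 0.000238 in NCS. The fold changes lie just above the fold limit of 1.5 used for differentially expressed genes (DEGs), and with a pseudocount of 1 RPKM in place of 0.1 the gene was below it in all 3 comparisons. It was also below the limit without AH replicate 2 in ACS and CCS, and in CCS without CCS replicate 2 or 3 and after median-of-ratios scaling (1.41). Between stored conditions the differences were at most 0.09 in size, and the 95% intervals together ran from -0.26 to 0.13, but after median-of-ratios scaling CCS was below NCS by -0.25 (limma adjusted p = 0.0251). The other flavonol synthase gene, FvH4_2g26480, was at or below 0.1001 RPKM in every library.

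Dihydroflavonol 4-reductase takes the pathway to leucoanthocyanidins. FvH4_2g39520 made up 97.7 to 98.9% of the RPKM of the 3 genes of this name, with 305, 303 and 304 RPKM in CCS, 263, 260 and 275 in ACS, 269, 262 and 264 in NCS and 232, 227 and 202 in AH. The CCS libraries were above all others and nearly equal to one another, ACS and NCS overlapped, and AH was the lowest. The gene rose over AH by 0.47 ± 0.08 in CCS (SE, limma adjusted p = 0.00527), a ratio of means of 1.38, by 0.27 ± 0.09 in ACS (0.0415) and by 0.27 ± 0.08 in NCS (0.0453). The NCS call ended in 7 of 13 alternatives and the ACS call in 8. CCS exceeded NCS by 0.20 ± 0.04 (limma adjusted p = 0.00818) and ACS by 0.19 ± 0.05 (0.0251). After median-of-ratios scaling of the libraries the difference from NCS was 0.03 (adjusted p = 0.641) and that from ACS 0.13 (adjusted p = 0.144), so the excess in CCS depended on the scaling. The call against ACS ended in 9 of 13 alternatives, among them the fits without any one CCS library or without ACS replicate 1 or 2 (adjusted p = 0.0548 to 0.0944).

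The gene described as dihydroflavonol 4-reductase-like1, FvH4_2g17230, was singled out after its values were seen. It had 3.44, 3.60 and 4.21 RPKM in CCS, 2.95, 3.17 and 3.58 in ACS, 6.28, 5.99 and 5.80 in NCS and 3.47, 3.46 and 3.35 in AH. The NCS libraries were above all others, and the other conditions overlapped. NCS exceeded AH by 0.80 ± 0.07 (SE, limma adjusted p = 0.000216), and CCS and ACS were below NCS by -0.67 ± 0.08 (0.000952) and -0.88 ± 0.08 (0.000284). Against AH the gene differed by 0.12 in CCS (95% interval -0.11 to 0.35) and by -0.09 in ACS (-0.31 to 0.14). The third gene, FvH4_7g11750, was listed at 0 in all 12 libraries, and the other annotation in the table names it as an RNA polymerase subunit.

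Leucoanthocyanidin dioxygenase, also called anthocyanidin synthase, forms the coloured anthocyanidins. FvH4_5g01170 had 850, 774 and 805 RPKM in CCS, 667, 709 and 725 in ACS, 909, 941 and 935.7 in NCS and 789, 781 and 718 in AH. NCS was again above all others, CCS was above ACS, and AH overlapped both. NCS exceeded AH by 0.29 ± 0.08 (SE, limma adjusted p = 0.0256), ACS was below NCS by -0.41 ± 0.05 (0.00126), CCS was below NCS by -0.20 ± 0.05 (0.0208) and CCS exceeded ACS by 0.21 ± 0.06 (0.045). The last call was lost without any one of the 6 libraries (adjusted p = 0.0591 to 0.113) and after median-of-ratios scaling (0.195). The call against AH was lost without any one NCS library or AH replicate 2 or 3, and the call of CCS against NCS without CCS replicate 2 or 3 or NCS replicate 2 or 3 (adjusted p = 0.0559 to 0.0956). Against AH the gene differed by 0.09 in CCS (95% interval -0.11 to 0.28) and by -0.12 in ACS (-0.32 to 0.07).

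**Figure D3:**
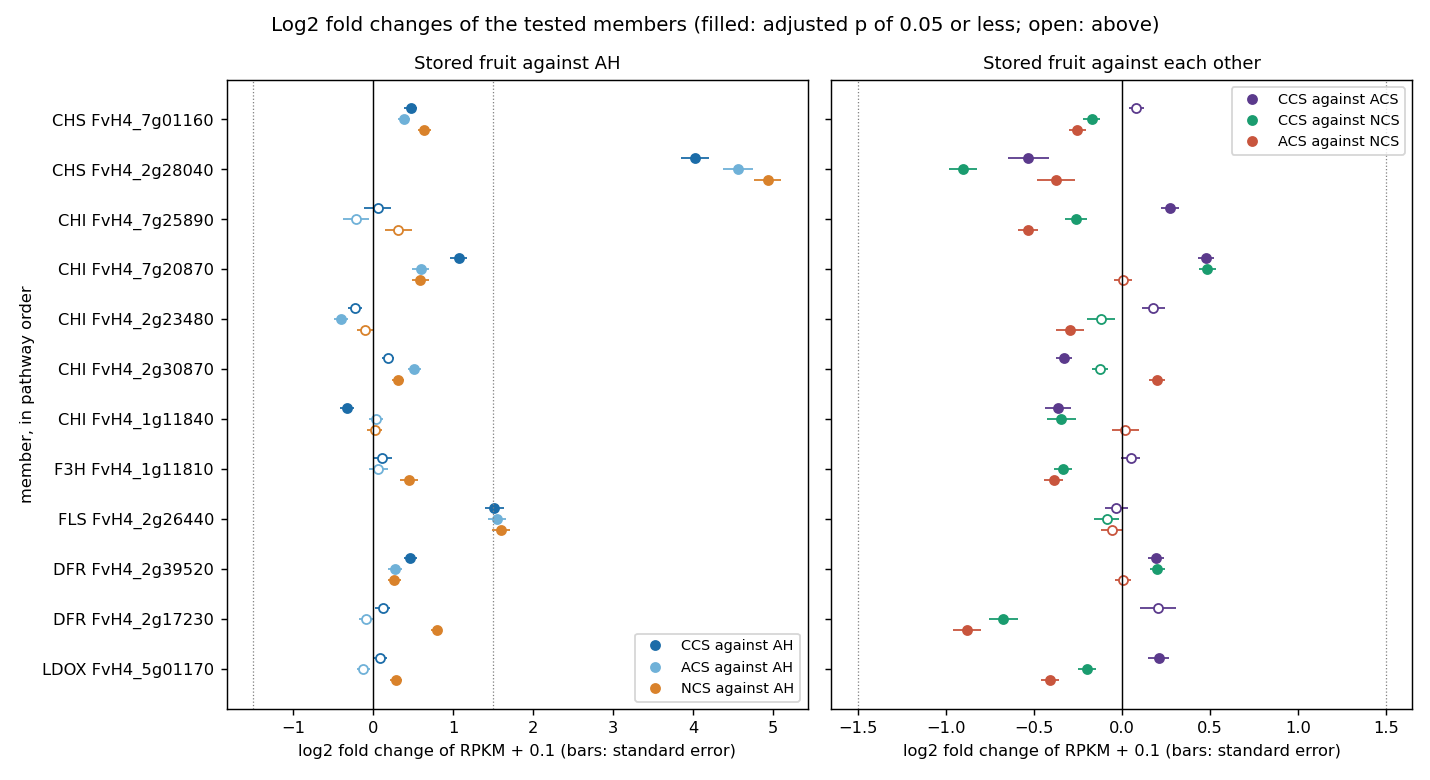
Log2 fold changes of RPKM + 0.1 (horizontal axes) of the 12 tested members in pathway order, for stored fruit against AH (left) and stored conditions against each other (right); bars are standard errors, filled points passed the test, open points did not, and dotted lines mark the fold limit of 1.5. Only FvH4_2g28040 and FvH4_2g26440 lie beyond the limit, in the comparisons with AH, and the points of FvH4_7g01160, FvH4_1g11810 and FvH4_5g01170 against NCS lie below 0. All points are from the filtered fit, whose filter FvH4_2g28040 and FvH4_2g26440 met against AH only through the stored libraries, so nothing is read from their filled points there.

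The members were then counted in each comparison. A gene was tested where 3 or more of the 6 libraries of a pair reached 0.5 RPKM, which 12 of the 18 members did in each of the 6 comparisons, and it passed at a limma adjusted p of 0.05 or less. In NCS against AH, 9 members were higher and 0 lower, where 36.1% of all 16092 genes tested passed, 14.7% upward and 21.4% downward. The median log2 fold change was 0.38 over the tested members and -0.07 over all genes tested. Only 5 members passed without any one NCS library or without AH replicate 2, and 10 passed without AH replicate 1. Without the filter 17 members were tested, of which 10 were higher and 1 was lower. In that fit 42.8% of all genes that passed were higher. FvH4_2g28040 and FvH4_2g26440 were the members past the test with a log2 fold change beyond 1.5 (DEGs), a class that held 6.34% of the genes tested. Both were tested only because they are high in stored fruit, so nothing is read from their number in this or the other comparisons with AH. The counts of higher members and the medians of the tested members against AH include them, which raises both.

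In ACS against AH, 6 members were higher and 1 was lower, where 42.8% of all genes tested passed (21.9% upward, 20.9% downward), and the median was 0.17 against 0.01 over all genes. In CCS against AH, 5 members were higher and 1 was lower, where 37.5% of all genes passed (23.6% upward, 13.9% downward), and the median was 0.15 against 0.07 over all genes. The same 2 genes were the DEGs in both, where 8.55% of genes in ACS and 6.62% in CCS were DEGs, and both member medians include them. With median-of-ratios scaling, 5 members were higher and 1 lower in ACS, and 5 were higher and 2 lower in CCS. Higher genes then made up 48.1% of all that passed in ACS and 48.4% in CCS, in place of 51.2% and 62.9%. All 3 of these comparisons share the AH libraries, so they are not separate evidence for a member.

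Between stored conditions, most of the members that differed were lower in the cold-stored fruit. In ACS against NCS, 1 member was higher and 7 were lower, where 48% of all genes tested passed (30.9% upward, 17.1% downward), and the median was -0.28 against 0.08 over all genes. In CCS against NCS, 2 members were higher and 7 were lower, where 51.6% of all genes passed (37.6% upward, 14% downward), and the median was -0.19 against 0.14 over all genes. Median-of-ratios scaling brought the median of all genes to -0.03 in both, and the members then split into 0 higher and 7 lower in ACS and into 1 higher and 10 lower in CCS. All genes turned downward as well. Of those that passed, 45.5% were higher in ACS after scaling, in place of 64.4%, and 44.4% in CCS, in place of 72.9%. In CCS against ACS, 4 members were higher and 3 were lower, where 28.7% of all genes passed (18.4% upward, 10.3% downward). The split was 2 higher and 3 lower after scaling, and 4 to 5 members passed when any one library was left out. Among all genes that passed in this comparison, the higher share was 64.2% before scaling and 42.3% after it. The 4 higher members were FvH4_7g25890, FvH4_7g20870, FvH4_2g39520 and FvH4_5g01170, and the 3 lower ones were FvH4_2g28040, FvH4_2g30870 and FvH4_1g11840. No member was a DEG in these 3 comparisons by limma or by voom on recovered reads. DEGs made up 3.33%, 3.73% and 0.318% of all genes tested in these comparisons.

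Summed over the 18 members, the pathway reached 4896 ± 14.7 RPKM in CCS, 4296 ± 96.0 in ACS, 5589 ± 57.1 in NCS and 4280 ± 586 in AH (SD, n = 3 each). The AH sum was 4912, 4173 and 3755 RPKM in replicates 1, 2 and 3, so it overlapped ACS and CCS but not NCS. That overlap came from AH replicate 1 alone, as replicates 2 and 3 lay below every stored library. Among the 6 abundant members the coefficient of variation within a condition was 0.269 to 4.73% in CCS, 0.643 to 4.30% in ACS, 1.23 to 5.67% in NCS and 5.10 to 23.5% in AH, the last being that of FvH4_7g25890.

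The balance between steps also differed among conditions, and ratios within a library do not depend on how libraries are scaled. Leucoanthocyanidin dioxygenase FvH4_5g01170 over dihydroflavonol 4-reductase FvH4_2g39520 was 2.79, 2.55 and 2.65 in CCS, 2.53, 2.73 and 2.64 in ACS, 3.38, 3.59 and 3.55 in NCS and 3.40, 3.43 and 3.56 in AH. All 6 cold-stored libraries were below all 6 others, and AH replicate 1 was not apart. The ratio of the 2 abundant chalcone isomerases, FvH4_7g25890 over FvH4_7g20870, averaged 5.49 ± 0.18 in CCS, 6.32 ± 0.13 in ACS, 9.19 ± 0.26 in NCS and 11.1 ± 1.15 in AH (SD, n = 3 each), with no overlap between conditions. Both ratios were chosen after the values were seen and were not tested. With 3 libraries a condition the smallest p of an exact permutation test is 0.1.

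**Figure D4:**
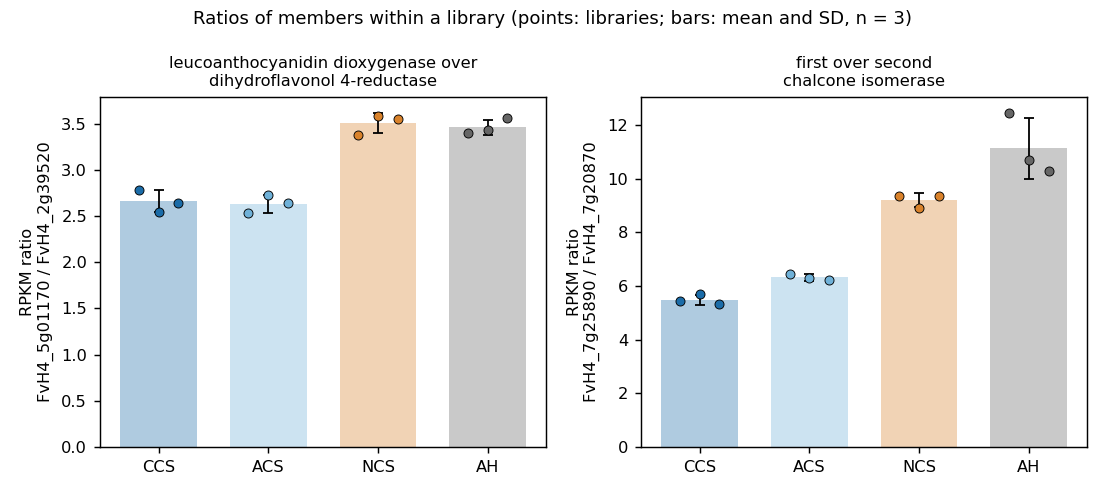
Ratio of RPKM within each library (vertical axes, from 0) for FvH4_5g01170 over FvH4_2g39520 (left) and FvH4_7g25890 over FvH4_7g20870 (right) in CCS, ACS, NCS and AH fruit; points are libraries, bars and whiskers the mean and SD of 3 libraries. The left ratio is 2.53 to 2.79 in the 6 cold-stored libraries and 3.38 to 3.59 in the other 6.

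The order of the abundant genes within a library was otherwise steady. FvH4_7g25890 was first and FvH4_1g11810 was next in all 12 libraries. FvH4_5g01170 came before FvH4_7g01160 in the CCS, NCS and AH libraries and after it in the 3 ACS libraries. FvH4_2g39520 came before FvH4_7g20870 in all but CCS replicates 2 and 3, where the CO2-treated level of the isomerase was the higher.

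Other genes of the pathway, outside the member rule, were found by their descriptions. Upstream, phenylalanine ammonia-lyase FvH4_7g19130, which opens the phenylpropanoid pathway, averaged 339 ± 11.96 RPKM in CCS, 306 ± 11.3 in ACS, 346 ± 15.6 in NCS and 389 ± 29.6 in AH (SD, n = 3 each), and it was lower in ACS than in AH (-0.34, limma adjusted p = 0.0191). Cinnamate 4-hydroxylase FvH4_3g40570, the next enzyme, averaged 88.9 ± 5.03 RPKM in CCS, 85.0 ± 2.20 in ACS, 103 ± 5.17 in NCS and 65.5 ± 6.49 in AH. It rose over AH in CCS (0.44, limma adjusted p = 0.0134), ACS (0.38, 0.0175) and NCS (0.66, 0.00202). Of the 3 4-coumarate CoA ligase genes, all tested, 1 was higher and 1 lower in CCS against AH, and 0 were higher and 1 lower in ACS and in NCS against AH.

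Downstream, FvH4_7g33840, annotated as an anthocyanidin glucosyltransferase, averaged 173 ± 11.3 RPKM in CCS, 165 ± 3.86 in ACS, 215 ± 6.43 in NCS and 232 ± 35.7 in AH (SD, n = 3 each). It was lower than AH in CCS (-0.42, limma adjusted p = 0.0414) and ACS (-0.48, 0.0177), and lower than NCS in CCS (-0.32, 0.00645) and ACS (-0.39, 0.0012). It was the only one of 8 genes of its description to pass the filter. Within the pathway rather than downstream, the cytochrome P450 FvH4_6g34950 is annotated as a probable flavonoid 3'-monooxygenase, an enzyme that sets the B-ring hydroxylation. It had 9.56, 8.84 and 8.59 RPKM in CCS, 4.05, 5.22 and 5.15 in ACS, 1.06, 1.15 and 0.835 in NCS and 7.28, 6.25 and 6.14 in AH. No 2 conditions overlapped, with CCS highest and NCS lowest. It fell in NCS against AH by 2.58 ± 0.13 on the log2 scale (SE, limma adjusted p = 1.7e-05) and was higher in CCS than in NCS (3.04 ± 0.11, 7.7e-06) and than in ACS (0.90 ± 0.11, 0.003). Of 13 genes with this annotation 3 passed the filter. Another, FvH4_5g14010, averaged 1.17 ± 0.07 RPKM in CCS, 1.15 ± 0.13 in ACS, 1.21 ± 0.12 in NCS and 0.546 ± 0.10 in AH, and was higher than AH in CCS (0.99, limma adjusted p = 0.00112), ACS (0.95, 0.00188) and NCS (1.03, 0.00109). The third, FvH4_6g34910, averaged 0.897 to 1.15 RPKM in the 4 conditions and passed the test in none of the 6 comparisons. Of 4 genes annotated with leucoanthocyanidin reductase, 3 passed the filter. FvH4_4g28110 was lower than AH in CCS (-1.08, limma adjusted p = 0.000175), ACS (-0.91, 0.000198) and NCS (-0.92, 0.000203). FvH4_5g04260 was higher than AH in CCS (0.70, 0.0425), ACS (0.94, 0.00462) and NCS (0.62, 0.0376). FvH4_3g02980 was higher in CCS (0.32, 0.0319) and NCS (0.74, 0.000365), with 0.22 in ACS (0.0512). The lists of glucosyltransferases, 3'-monooxygenases and leucoanthocyanidin reductases were added after the descriptions in the table were seen, and the genes named from them were chosen after their values were seen.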

How the data were processed

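RNA of 12 libraries (4 conditions of 3) had been sequenced from whole-fruit powder. Per the labels and the study's methods, the authors used CASAVA 1.8, FastQC, Cutadapt 1.16.6 and HISAT2 2.1.0, aligned to the Fragaria vesca genome, and computed RPKM per gene in SeqMonk from total counts, without strand, so overlapping and antisense genes share reads. The authors' log2 fold changes of 6 comparisons, from DESeq2, are in the same deposited table and were not used. RPKM values of 30994 of 30995 genes above 0 gave whole reads (to within 0.2 reads); 96.2 to 98.1% of reads lay on genes. Each pair of conditions was fitted on its own 6 libraries with limma 3.58.1 in R 4.3.3 on log2(RPKM + 0.1), keeping genes that reached 0.5 RPKM in 3 or more of the 6 libraries, with Benjamini-Hochberg adjustment over all genes tested. The limits (adjusted p of 0.05, log2 fold change of 1.5) were those of the study. Alternatives were a pseudocount of 1 RPKM, no filter, median-of-ratios scaling, voom on recovered reads, all 12 libraries in one fit, eBayes with a trend, a replicate block and leaving out each library. The fit was tested on simulated data.

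Values were given in every library for the member with the highest mean in each step and for every DEG; other members named are said to be chosen after their values were seen, or were described by their ranges or group means. The members and lists were chosen with earlier results of these data known. Identifiers matched 0 entries of the RefSeq table used for names, so no sequences or coordinates are given.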

Additional observations from a re-analysis of the deposited data

How the results depend on the processing

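Over the 54 fold changes of 9 members in 6 comparisons, 54 kept their direction and side of the threshold with a pseudocount of 1 RPKM, with voom and with an eBayes trend, 50 with all 12 libraries in one fit and 48 without a filter. With a pseudocount of 1 RPKM, 1 member was a DEG against AH in place of 2 in each of NCS, ACS and CCS, since FvH4_2g26440 fell below the fold limit. With median-of-ratios scaling 1 member was a DEG in CCS against AH, and 43 of 54 fold changes kept their call and direction. The scaling shifted the median of all genes by over 0.1 in CCS against AH (-0.04 in place of 0.07), CCS against NCS (-0.03 in place of 0.14) and ACS against NCS (-0.03 in place of 0.08). It reversed 6 small fold changes that had not passed the test: in CCS against AH FvH4_7g25890 (-0.0633), FvH4_1g11810 (-0.0048) and FvH4_5g01170 (-0.0338), in CCS against ACS FvH4_1g11810 (-0.0186), and in ACS against NCS FvH4_7g20870 (-0.1059) and FvH4_2g39520 (-0.1065). It also brought FvH4_2g26440 past the test in CCS against NCS (-0.25, limma adjusted p = 0.0251).

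Leaving out 1 library gave 5 to 10 members past the test in NCS against AH, 5 to 7 in ACS against AH, 5 to 6 in CCS against AH, 4 to 5 in CCS against ACS, 7 to 8 in CCS against NCS and 6 to 8 in ACS against NCS. DEGs then numbered 2 in NCS against AH, 1 to 2 in ACS and in CCS against AH, and 0 between stored conditions. The sign turned in 7 of these fits, over 5 fold changes that had not passed (ranges over the left-out libraries): FvH4_1g11810 in ACS against AH (-0.0286 to 0.1739, lowest without AH replicate 3), FvH4_7g25890 in CCS against AH (-0.0744 to 0.2401, lowest without AH replicate 3), FvH4_2g26440 in CCS against ACS (-0.0656 to 0.0233, highest without CCS replicate 1), and in ACS against NCS FvH4_7g20870 (-0.0174 to 0.022) and FvH4_2g39520 (-0.0173 to 0.0219), each below 0 without ACS replicate 3 or NCS replicate 2. The cause of these changes was not tested.

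Replicate numbers are shared between conditions, but same-numbered libraries did not deviate together in every pair of any comparison (the closest was CCS against ACS, with correlations of 0.31, 0.05 and 0.40), so the numbers were not taken to pair the libraries. With the replicate block 6 members passed in NCS against AH, 6 in ACS against AH, 5 in CCS against AH, 6 in CCS against ACS, 7 in CCS against NCS and 7 in ACS against NCS, and 45 of 54 fold changes kept their call. With pools from 1 lot a condition, differences between conditions cannot be told apart from differences between lots.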
